A study of Mus musculus with 4 samples.

Results

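Pyruvate entry and the TCA cycle were followed gene by gene in P7 mouse hearts, over 30 genes that carry pyruvate into mitochondria, turn it into acetyl-CoA, run the cycle, move its reducing equivalents across the inner membrane or feed side reactions. The genes were taken by symbol from a list of reaction steps. All 30 were found among the 24454 genes counted, and all 30 had enough reads to be tested. Heart RNA was sequenced in 2 Ctrl libraries (WH7, WH8) and 2 *miR-128*OE libraries (WH9, WH10), with values given in that order throughout. *miR-128*OE mice carry α-MHC-tTA and the miR-128TetRE allele, so that *miR-128* is transcribed in CMs when doxycycline is absent. Ctrl mice carry the miR-128TetRE allele without the driver. The α-MHC promoter restricts the driver to CMs, while the libraries hold RNA of the whole heart. The timing of doxycycline for these hearts was not given in the sources used here. The question addressed was how raised *miR-128* in CMs changes the transcripts of these steps in the neonatal heart.

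Pyruvate made by glycolysis or from lactate crosses the inner mitochondrial membrane through the MPC1 and MPC2 carrier. The pyruvate dehydrogenase (PDH) complex converts it to acetyl-CoA, which citrate synthase joins to oxaloacetate, and the cycle then yields reducing equivalents for respiration. The heart depends on this machinery heavily, and the shift from glycolysis to mitochondrial oxidation after birth is a known part of CM maturation. PDH kinases inactivate the complex and PDH phosphatases reactivate it, while malate dehydrogenases and aspartate aminotransferases on both sides of the membrane form the malate-aspartate shuttle.

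Total counts were 12385863 in WH7, 8096870 in WH8, 12440553 in WH9 and 14359838 in WH10. Normalized counts are read counts scaled to one common library size by TMM factors, and a gene was said to rise or fall at an adjusted p under 0.05 in edgeR's quasi-likelihood test over 14266 genes. Replicates are separate libraries, and the labels do not say that they came from separate animals, so the p-values measure the spread between these libraries. The libraries also differed in ways outside the pathway. Counts of *Xist* were 14543 and 11339 for Ctrl but 94 and 132 for *miR-128*OE, and those of the Y-linked *Ddx3y* were 13 and 7 against 1442 and 1768. The condition therefore coincided with sex, and their parts in any difference cannot be told apart. All 30 genes lie on autosomes.

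The labelled tissue was checked against markers. Summed over 10 CM markers, led by *Myh6*, the libraries had 609720, 655733, 770025 and 754005 normalized counts, which is the profile of heart tissue in every library. Of these markers *Actn2*, *Myl3*, *Myh6*, *Pln* and *Atp2a2* rose and *Ryr2* and *Ttn* fell in *miR-128*OE hearts. The Ctrl libraries stood apart from each other in 4 atrial markers, which summed to 69252 in WH7 and 8264 in WH8, against 24839 and 31811 in *miR-128*OE. *Nppa*, the most abundant of these, had 31104, 2746, 5165 and 10838 normalized counts. Fibroblast markers summed to 104873, 67736, 91387 and 97975, with *Col3a1* the most abundant, and *Lum* rose. Epicardial markers, led by *Msln*, had a sum of 1246 in WH7 and 609 in WH8, against 728 and 664. Sums over 7 endothelial markers lay between 21092 and 22114 in the 4 libraries, although *Pecam1* and *Cdh5* rose and *Emcn* and *Egfl7* fell. The 8 smooth muscle and pericyte markers, led by *Acta2*, summed to 23380, 21527, 27506 and 31626. *Acta2* alone had 7382, 6815, 12481 and 14753, and of this list *Acta2* and *Rgs5* rose and *Myh11* fell. The 8 macrophage markers were low, at 1668, 1179, 1172 and 1186, and *Cx3cr1* fell. Brown fat markers moved with the condition: the 5 genes summed to 393, 396, 842 and 643, led by *Cidea*, 3 of them rose, and *Ucp1* had 56, 3, 253 and 189 counts. The 4 globin genes were listed at 0 in all libraries, while *Alas2*, an enzyme of haem synthesis in red cells, rose from 445 and 304 to 823 and 756 normalized counts. Skeletal muscle markers summed to 257, 237, 237 and 278, with *Myod1* and *Myf5* at 0. Schwann cell markers summed to 426, 454, 276 and 290. The part of these other cells in the results on the pathway was not tested. Leaving each library out in turn addresses differences between replicates, not markers that moved in both libraries of a condition. In bulk tissue, fewer cells of a type and less RNA per cell cannot be told apart.

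Of the 30 genes, 24 rose in *miR-128*OE hearts, 0 fell and 6 did not pass the test. Across all tested genes 16.5% rose and 15% fell. The median log2 fold change of the 30 genes was 0.61, against −0.01 for all tested genes. Both *miR-128*OE libraries lay above both Ctrl libraries for 25 of the genes, a pattern that 33.7% of all tested genes showed, and below both for *Pdp1* alone. In 4 genes the conditions overlapped. The 30 genes together took 0.605% and 0.646% of all counts in WH7 and WH8, against 1.01% and 0.941% in WH9 and WH10. Set against the summed CM markers of the same library, their counts were 11.2% and 11.3% of the marker counts in Ctrl against 16.2% and 15.1% in *miR-128*OE, so that the share was higher in both *miR-128*OE libraries on this scale as well. With scaling by these markers, an alternative added after the data were seen, 21 genes rose and the median log2 fold change of the 30 genes was 0.34, against −0.29 for all tested genes. Without WH7 or without WH8 the number that rose was 24, without WH9 it was 20 and without WH10 it was 23. At an unadjusted p under 0.05 *Pdp1* was the 1 gene with a lower value in edgeR's quasi-likelihood, likelihood ratio and exact tests, and DESeq2 gave 0.

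**Figure D1:**
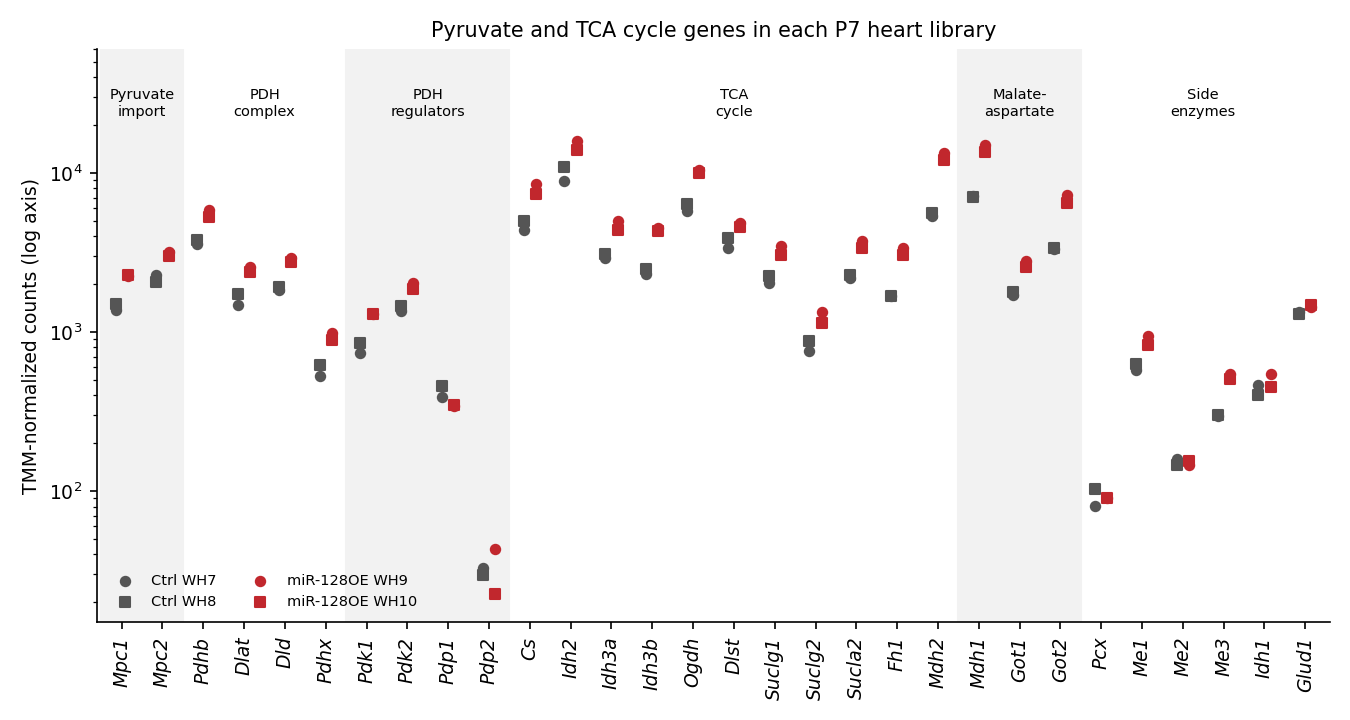
TMM-normalized counts (log axis) of the 30 genes in each of the 4 P7 heart libraries, grouped by reaction step, with one point per library. In 25 genes both *miR-128*OE points lie above both Ctrl points, while *Pdp2*, *Pcx*, *Me2* and *Idh1* overlap and *Pdp1* lies below.

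The binding sequence of the overexpressed miRNA shows which of these transcripts could pair with it by their 3′UTR. The mature *miR-128* sequence of RefSeq is printed with its seed, bases 2 to 8, in capitals. It is the same from *Mir128-1* (chr1:128202404-128202424, plus strand) and *Mir128-2* (chr9:112118644-112118664, minus strand) of GRCm38.p6.
mmu-miR-128-3p: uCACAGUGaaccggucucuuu
Matches were searched on the transcript strand of the longest annotated 3′UTR, as CACTGTG, which pairs with the whole seed, or ACTGTGA, which pairs with bases 2 to 7 and has an A opposite base 1. The letters overlap, so that a stretch can hold both, and the share is of genes with at least 1 match. Of the 30 genes, 2 held a match (6.67%), against 4176 of 13463 tested genes with a 3′UTR (31%). The median 3′UTR length was 946 bases for the 30 genes and 1199 for the tested genes. The matches lay in *Pdk1* and *Suclg2*, each in exon 11 of 11, and are shown within their flanks on GRCm38 with the matching bases in capitals.
Pdk1, chr2:71900692-71900717, plus strand: acaaagtctCACTGTGtagccccagc
Pdk1, chr2:71902925-71902950, plus strand: ccacacgtgCACTGTGcacatgcgca
Suclg2, chr6:95474991-95475016, minus strand: tccctgactACTGTGAaagcaattgt
Suclg2, chr6:95473889-95473914, minus strand: gcagtcacgCACTGTGccgtgtagca
Both of these genes were among those that rose. The 3′UTR of *Pdp1*, the gene with the lowest fold change, held no match over 2389 bases. A match is a description of letters and does not show binding.

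Transcripts of both subunits of the pyruvate carrier were higher in *miR-128*OE hearts. *Mpc1*, a subunit of the mitochondrial pyruvate carrier, had 1370 and 1497 normalized counts in Ctrl against 2260 and 2268 in *miR-128*OE hearts, with a log2 fold change of 0.66 (SE 0.08, adjusted p = 0.000471). *Mpc2*, its partner, had 2273 and 2071 against 3191 and 2995, with a log2 fold change of 0.51 (SE 0.08, adjusted p = 0.00206) and an adjusted p of 0.0934 with scaling by CM markers. Neither gene overlapped between the conditions. In RPKM, read counts divided by exon length and library size, a scale that allows levels of different genes to be set side by side, the carrier subunits summed to 83.6 ± 2.0 (Ctrl, SD, n = 2) and 128 ± 1.37 in *miR-128*OE (SD, n = 2). *Mpc1* shares 23.1% of its exon bases with a gene on the other strand, and since the handling of strand was not given, reads of the pair cannot be told apart.

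The 4 listed subunits of the PDH complex rose by similar amounts. *Pdhb*, the beta subunit of pyruvate dehydrogenase itself, had 3592 and 3802 normalized counts in Ctrl against 5869 and 5297 in *miR-128*OE hearts (log2 fold change 0.59). *Dlat*, the acetyltransferase core, had 1476 and 1723 against 2571 and 2379 (0.63). *Dld*, the dihydrolipoamide dehydrogenase that the PDH and 2-oxoglutarate dehydrogenase complexes share, had 1840 and 1921 against 2933 and 2756 (0.60). For each of them the lower *miR-128*OE library exceeded the higher Ctrl library. *Pdhx*, which anchors that dehydrogenase to the core, had 532 and 623 against 986 and 890, with a log2 fold change of 0.70 (SE 0.10, adjusted p = 0.00119). Adjusted p-values of the 4 genes lay between 0.000715 and 0.00126. *Pdha1*, the X-linked alpha subunit and not one of the 30 genes, had 2133 and 2243 against 3804 and 3354, a log2 fold change of 0.71, close to that of the autosomal subunits in size. Summed over the 4 subunits, the level was 165 ± 9.01 RPKM (Ctrl, SD, n = 2) and 252 ± 15.6 RPKM in *miR-128*OE (SD, n = 2), a ratio of 1.53.

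Of the regulators of the PDH complex, both listed kinases rose and neither phosphatase passed the test. *Pdk1*, a kinase that inactivates the complex, had 743 and 854 normalized counts in Ctrl against 1291 and 1299 in *miR-128*OE hearts, with a log2 fold change of 0.70 (SE 0.09, adjusted p = 0.000625). *Pdk2*, a second kinase, had 1366 and 1450 against 2028 and 1876, with a log2 fold change of 0.47 (SE 0.08, adjusted p = 0.00258). Neither kinase overlapped between the conditions, although the adjusted p of *Pdk2* was 0.0509 without WH9 and 0.0874 with scaling by CM markers. *Pdp1*, a catalytic subunit of the phosphatase that reactivates PDH, had 391 and 458 normalized counts in Ctrl against 344 and 350 in *miR-128*OE hearts. The libraries did not overlap, but the log2 fold change of −0.29 (SE 0.12, adjusted p = 0.0881) did not pass the test. It passed when TMM factors gave way to total counts (adjusted p = 0.0312), with scaling by CM markers (0.00506) and without WH7 (0.019). It did not pass in DESeq2 (adjusted p = 0.26), without WH9 (0.347) or without WH10 (0.278), and without WH8 the log2 fold change was −0.17 (adjusted p = 0.286). *Pdp2*, the other catalytic subunit, was measured with low precision at 36, 21, 44 and 27 raw counts, or 32.9 and 29.7 against 43.6 and 22.7 normalized counts. The *miR-128*OE libraries lay on both sides of the Ctrl libraries, with a log2 fold change of 0.05 (SE 0.37), so that no difference was detectable. Of the kinases outside the 30 genes, *Pdk4*, the isoform known for its induction by fasting and fatty acids, had 1550 and 2488 against 3352 and 2797. It rose by 0.61 on the log2 scale (SE 0.18, adjusted p = 0.0306), and the adjusted p was 0.236 in DESeq2, 0.0559 with total counts, 0.129 with scaling by CM markers and 0.177 without WH9. The size rested on the Ctrl libraries, with a log2 fold change of 0.31 without WH7 and 0.99 without WH8. *Pdk3*, which is X-linked, had 181 and 191 against 248 and 220 and did not pass (log2 fold change 0.33, adjusted p = 0.0923).

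All 11 listed enzymes and subunits of the TCA cycle rose, with log2 fold changes from 0.38 to 1.22. At its entry, *Cs*, citrate synthase, had 4414 and 5003 normalized counts in Ctrl against 8500 and 7373 in *miR-128*OE hearts, with a log2 fold change of 0.75 (SE 0.10, adjusted p = 0.000822). *Aco1*, the cytosolic aconitase and not one of the 30 genes, had 447 and 428 against 521 and 498 and did not pass (log2 fold change 0.22, adjusted p = 0.121). At isocitrate oxidation the subunits of the NAD-dependent dehydrogenase differed. *Idh3a*, its catalytic alpha subunit, had 2910 and 3118 against 4975 and 4380, with a log2 fold change of 0.63. *Idh3b*, the beta subunit, had 2322 and 2492 against 4514 and 4330, with a log2 fold change of 0.88 (SE 0.08, adjusted p = 0.000124). The X-linked gamma subunit *Idh3g*, outside the 30 genes, had 2656 and 2880 against 4049 and 3732 and rose by 0.49 on the log2 scale, with an adjusted p of 0.0652 with scaling by CM markers. The difference between these subunits was not tested. *Idh2*, the NADP-dependent mitochondrial enzyme, had the highest level of the 30 genes per length, at 324 RPKM in Ctrl and 490 in *miR-128*OE hearts. It had 8935 and 10832 normalized counts against 15977 and 13866, with a log2 fold change of 0.59 (SE 0.12, adjusted p = 0.00467), and its adjusted p was 0.0686 without WH9.

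At the 2-oxoglutarate dehydrogenase complex, *Ogdh*, the dehydrogenase subunit, had 5730 and 6378 normalized counts in Ctrl against 10473 and 9942 in *miR-128*OE hearts, with a log2 fold change of 0.75 (SE 0.09, adjusted p = 0.000463). *Dlst*, the succinyltransferase core of the same complex, had 3385 and 3899 against 4857 and 4607. Its log2 fold change of 0.38 (SE 0.09, adjusted p = 0.0131) was the smallest of the 24 genes that rose, and the adjusted p was 0.127 without WH9, 0.0585 without WH10 and 0.342 with scaling by CM markers. Its libraries nonetheless did not overlap between the conditions. Succinyl-CoA ligase has a shared alpha subunit, *Suclg1*, which had 2049 and 2236 against 3455 and 3073 (log2 fold change 0.61). Its GDP-forming beta subunit *Suclg2* had 756 and 876 against 1346 and 1148 (0.61). Its ADP-forming beta subunit *Sucla2* had 2177 and 2295 against 3724 and 3388 (0.67). The 3 genes of this enzyme thus had log2 fold changes within 0.61 to 0.67, with adjusted p-values of 0.0012, 0.00268 and 0.000526. *Sdha*, *Sdhb*, *Sdhc* and *Sdhd*, the subunits of succinate dehydrogenase and outside the 30 genes, rose by 0.62, 0.58, 0.92 and 0.62 on the log2 scale.

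The largest log2 fold changes among the 11 genes were those of *Mdh2* and *Fh1*, at the last reactions of the cycle, from fumarate to oxaloacetate. That of *Fh1* lay close to the 0.88 of *Idh3b*, and differences between the genes were not tested. *Fh1*, fumarate hydratase (chromosome 1 of GRCm38, 175601378 to 175625635), had 1696 and 1682 normalized counts in Ctrl against 3368 and 3059 in *miR-128*OE hearts. The log2 fold change was 0.93 (SE 0.08, adjusted p = 0.000107), or 1.9-fold. *Mdh2*, mitochondrial malate dehydrogenase, had 5398 and 5567 normalized counts in Ctrl against 13380 and 12107 in *miR-128*OE. This log2 fold change of 1.22 (normal-approximation 95% interval 1.04 to 1.39, adjusted p = 4.16e-05), or 2.32-fold, was the largest of the 30 genes. In both genes the Ctrl libraries lay close together and far below either *miR-128*OE library. Summed over its 11 listed genes, the cycle had 906 ± 74.3 RPKM (Ctrl, SD, n = 2) and 1538 ± 118 RPKM in *miR-128*OE (SD, n = 2), a ratio of 1.70.

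**Figure D2:**
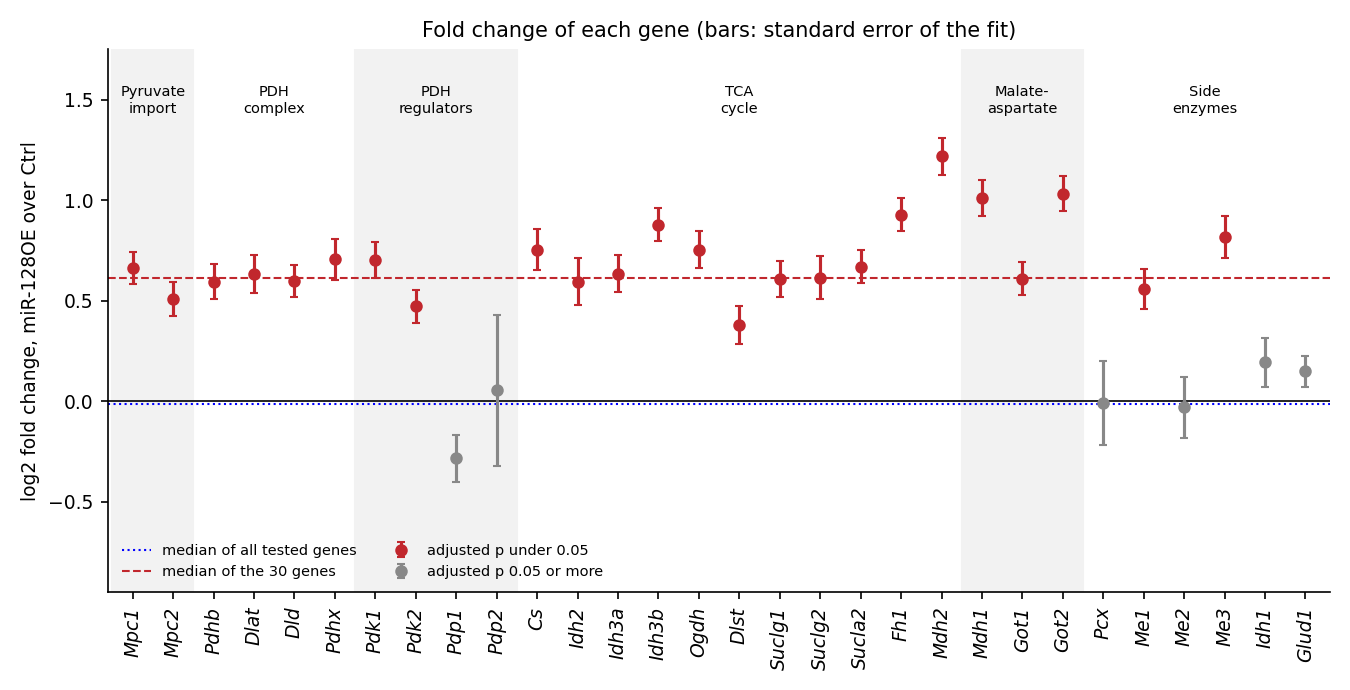
Log2 fold change of each of the 30 genes (*miR-128*OE over Ctrl) from edgeR, with bars for the standard error of the fit, and lines at the median of the 30 genes (0.61) and of all tested genes (−0.01). Filled red points passed at an adjusted p under 0.05, and the highest values are those of *Mdh2*, *Got2*, *Mdh1* and *Fh1*.

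The malate-aspartate shuttle, which carries reducing equivalents from cytosolic NADH into mitochondria, had the highest ratio of the 6 steps. *Mdh1*, the cytosolic malate dehydrogenase (chromosome 11, 21556692 to 21571934), had 7195 and 7072 normalized counts in Ctrl against 15061 and 13643 in *miR-128*OE hearts, with a log2 fold change of 1.01 (SE 0.09, adjusted p = 0.00011). *Got2*, the mitochondrial aspartate aminotransferase (chromosome 8, 95864133 to 95888401), had 3342 and 3375 against 7247 and 6488, with a log2 fold change of 1.03 (SE 0.09, adjusted p = 9.07e-05). *Mdh2*, *Got2* and *Mdh1* were the 3 genes of the 30 that rose by at least 1 on the log2 scale. *Got1*, the cytosolic aminotransferase, had 1713 and 1789 against 2786 and 2553, with a log2 fold change of 0.61 (SE 0.08, adjusted p = 0.000769). Summed over *Mdh1*, *Got1* and *Got2*, the level was 354 ± 0.657 RPKM (Ctrl, SD, n = 2) and 685 ± 48.2 RPKM in *miR-128*OE (SD, n = 2), a ratio of 1.94. The carriers of the shuttle, outside the 30 genes, had smaller values. *Slc25a11*, the 2-oxoglutarate and malate carrier, had 1935 and 2017 normalized counts against 2798 and 2582 and rose by 0.45 on the log2 scale, with an adjusted p of 0.064 without WH9 and 0.133 with scaling by CM markers. Of the aspartate and glutamate carriers, *Slc25a13* had 388 and 438 against 580 and 574 and rose by 0.49, with an adjusted p of 0.0654 without WH9 and 0.115 with scaling by CM markers. *Slc25a12*, the other of these, had 1171 and 1353 against 1511 and 1387 and did not pass (0.20, adjusted p = 0.132), although without WH8 its log2 fold change was 0.31 (adjusted p = 0.016), without WH7 it was 0.099 and with scaling by CM markers −0.066. *Got2* shares 9% of its exon bases with a gene on the other strand, and *Mdh1* shares 2.03%.

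Among the enzymes of side reactions, 2 of 6 rose (33.3%), where 16.5% of all tested genes rose. With so few genes this share is not read as a result about the step. *Me3*, a mitochondrial malic enzyme that turns malate into pyruvate, had 296 and 302 normalized counts in Ctrl against 548 and 507 in *miR-128*OE hearts, with a log2 fold change of 0.82 (SE 0.11, adjusted p = 0.000618). *Me1*, the cytosolic malic enzyme, had 577 and 626 against 948 and 823 and a log2 fold change of 0.56 (SE 0.10, adjusted p = 0.00299), with an adjusted p of 0.052 without WH9. The remaining genes of this step did not pass the test. *Me2*, the NAD-dependent mitochondrial malic enzyme, had 160 and 147 against 147 and 155, with a log2 fold change of −0.03 (normal-approximation 95% interval −0.33 to 0.27). *Pcx*, the pyruvate carboxylase that makes oxaloacetate from pyruvate, had 80.5 and 103 against 90.1 and 90, with a log2 fold change of −0.01 (−0.42 to 0.40). *Idh1*, the cytosolic NADP-dependent isocitrate dehydrogenase, had 462 and 401 against 542 and 451, with a log2 fold change of 0.19 (−0.05 to 0.43, adjusted p = 0.264). In these 3 genes the libraries of the conditions overlapped, and the intervals leave room for a change of the size seen in *Dlst* for *Pcx* and *Idh1*. *Glud1*, the glutamate dehydrogenase that feeds 2-oxoglutarate into the cycle, had 1338 and 1306 against 1444 and 1487. Both of its *miR-128*OE libraries lay above both Ctrl libraries, and its log2 fold change of 0.15 (SE 0.08, adjusted p = 0.172) did not pass.

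Levels per length differed widely between the genes. After *Idh2*, the highest were *Mdh1*, at 236 RPKM in Ctrl and 475 in *miR-128*OE hearts, and *Mdh2*, at 131 and 304. The order of these malate dehydrogenases depends on the length used, since their Ctrl levels were about equal per length of the longest transcript. The lowest was *Pdp2*, at 0.467 and 0.494 RPKM, below *Me2* at 1.80 and 1.76 and *Pcx* at 1.64 and 1.61. *Pdp1*, at 8.0 and 6.53 RPKM, was far above *Pdp2* in both conditions. The other genes that did not pass were *Glud1*, at 26.7 and 29.6 RPKM, and *Idh1*, at 13.2 and 15.2, while *Me3* rose from 1.74 to 3.06. The place of *Me3* in this order depends on the length used as well. In Ctrl its mean log2 ratio to *Me1* was −2.93 by the union of exons and −1.45 by the longest transcript. Over the 30 genes the summed level was 1621 ± 87.2 RPKM (Ctrl, SD, n = 2) and 2748 ± 189 RPKM in *miR-128*OE (SD, n = 2). Replicates differed in a shared direction, since WH8 exceeded WH7 in 23 genes and WH9 exceeded WH10 in 25. The median coefficient of variation between replicates was 6.08% in Ctrl and 6.43% in *miR-128*OE hearts.

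**Figure D3:**
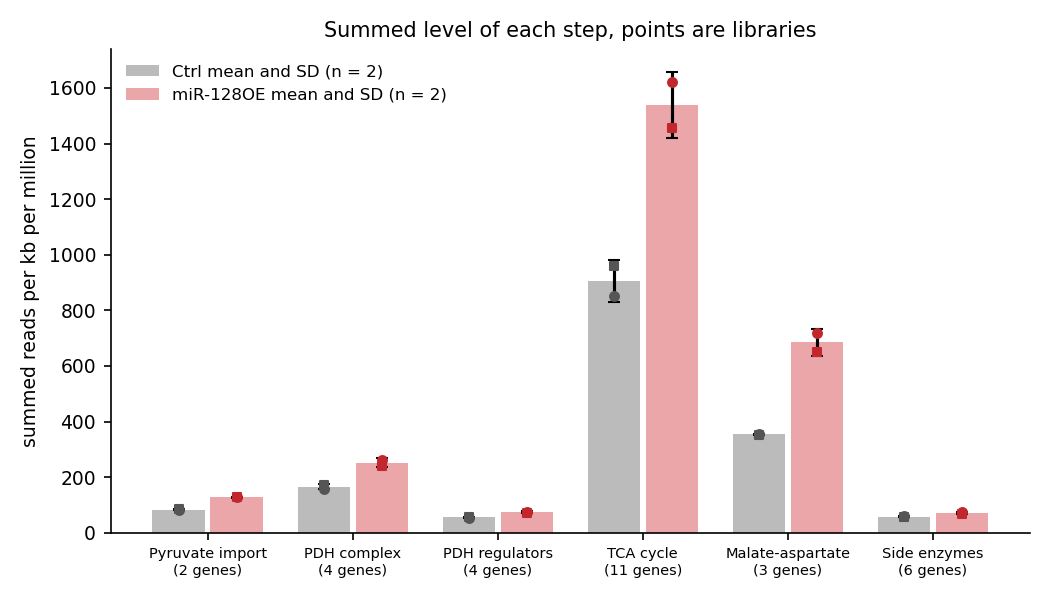
Summed RPKM of the genes of each step, with bars for the mean of 2 libraries per condition and points for the libraries. The *miR-128*OE points lie above the Ctrl points in each step, with ratios of 1.94 for the malate-aspartate shuttle, 1.70 for the cycle, 1.53 for import and the PDH complex, 1.34 for the PDH regulators and 1.21 for the side enzymes.

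Pairs of enzymes that catalyze the same reaction were then compared within each library, where scaling between libraries does not enter. Counts were divided by the union of exons. The ratios change with the length used, while the differences between the conditions do not. The log2 ratio of the mitochondrial *Got2* to the cytosolic *Got1* was 0.04 and −0.01 in Ctrl against 0.45 and 0.42 in *miR-128*OE hearts, a difference of 0.42. By the longest transcript it was 0.67 and 0.62 against 1.08 and 1.05. The log2 ratio of *Mdh2* to *Mdh1* was −0.89 and −0.82 in Ctrl against −0.64 and −0.64 in *miR-128*OE hearts, a difference of 0.21. The ratio of *Idh2* to *Idh1* was 4.37 and 4.85 against 4.98 and 5.04, a difference of 0.40 that was 0.16 without WH7 and 0.64 without WH8. In these 3 pairs both *miR-128*OE ratios lay above both Ctrl ratios, and for *Idh2* to *Idh1* the size depended on WH7. The ratio of mitochondrial *Me3* to cytosolic *Me1* was −2.89 and −2.98 against −2.72 and −2.63, a difference of 0.26 in the same direction. The ratio of *Pdk2* to *Pdk1* was 2.18 and 2.06 against 1.95 and 1.83, a difference of −0.23, lower in both *miR-128*OE libraries. For *Suclg2* to *Sucla2* the ratios overlapped, at −1.74 and −1.60 against −1.68 and −1.77. For *Pdp2* to *Pdp1* they overlapped as well, at −3.91 and −4.28 against −3.32 and −4.28. With 2 libraries per condition an exact permutation test of a ratio cannot pass 0.05. No other test of these ratios was run, and they are given as values. Separation of the conditions is common in these libraries, since only 4553 of 14266 tested genes overlapped between them. The share over ratios of other genes was not computed.

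**Figure D4:**
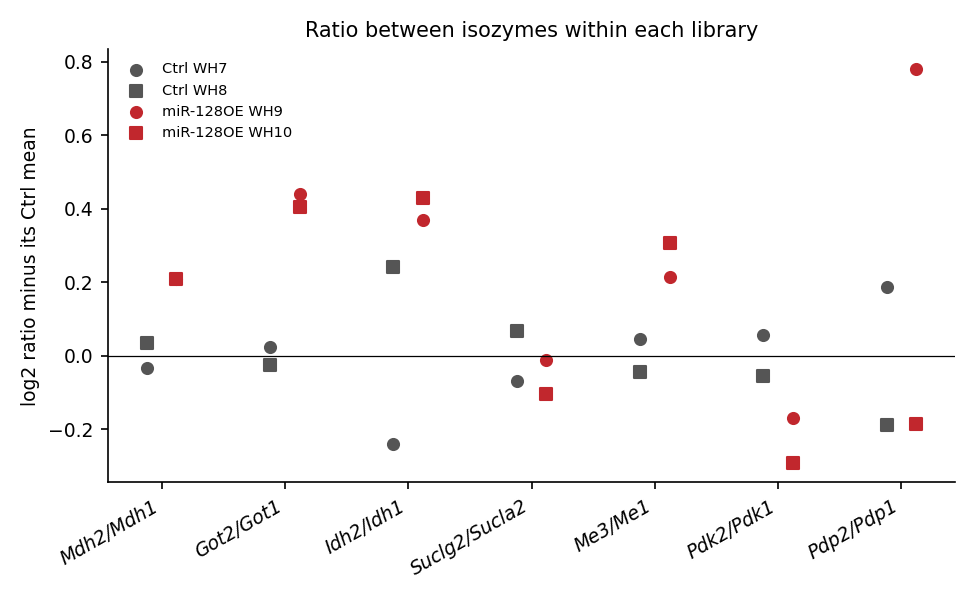
Log2 ratio of 7 pairs of enzymes within each library, minus the mean of the Ctrl libraries of that pair, with one point per library. Both *miR-128*OE points lie above the Ctrl points for *Got2*/*Got1*, *Mdh2*/*Mdh1*, *Idh2*/*Idh1* and *Me3*/*Me1*, lie below them for *Pdk2*/*Pdk1*, and overlap them for *Suclg2*/*Sucla2* and *Pdp2*/*Pdp1*.

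The remaining genes of the pathway were counted in the same way. Of 33 such genes, which cover the remaining subunits, lactate and alanine exchange, carriers, lipoate synthesis and hydroxyglutarate removal, 15 rose, 2 fell and 16 did not pass, against 16.5% that rose and 15% that fell over all tested genes. Their median log2 fold change was 0.42. The largest rise was that of *Slc16a3*, a monocarboxylate transporter known for lactate export, which had 73.2 and 55.1 normalized counts in Ctrl against 140 and 151 in *miR-128*OE hearts (log2 fold change 1.16, SE 0.20, adjusted p = 0.0027). *Slc16a1*, the monocarboxylate transporter of most tissues, had 828 and 896 against 1690 and 1633 and rose by 0.95 on the log2 scale. Both lactate dehydrogenases rose as well, *Ldha* by 0.77 and *Ldhb* by 0.91. The genes that fell were *D2hgdh* and *Pck2*. *D2hgdh*, which oxidizes D-2-hydroxyglutarate to 2-oxoglutarate, had 480 and 582 against 231 and 187 (log2 fold change −1.34, SE 0.14, adjusted p = 0.000241). *Pck2*, the mitochondrial phosphoenolpyruvate carboxykinase, which takes oxaloacetate out of the cycle, had 681 and 691 against 320 and 330 (−1.08, SE 0.10, adjusted p = 0.000105). Both were lower in each *miR-128*OE library than in either Ctrl library, opposite to the enzymes of the cycle itself. Genes for making and attaching lipoate, the cofactor of the PDH and 2-oxoglutarate dehydrogenase complexes, did not pass, with log2 fold changes of −0.05 for *Lias*, 0.54 for *Lipt1* and 0.33 for *Lipt2*.

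The pathways that supply the cycle were set beside it. Of 19 genes of fatty acid oxidation, which makes acetyl-CoA, 15 rose (78.9%) and 2 fell (10.5%), against 16.5% and 15% of all tested genes. The median log2 fold change of the 19 genes was 0.64. *Acads*, *Etfa* and *Echs1* rose most, by 0.97, 0.92 and 0.83 on the log2 scale. *Cpt1b* and *Cpt1a*, the isoforms of the enzyme that admits fatty acids to mitochondria, fell by 0.71 and 0.28. Without WH9, 9 genes of that list rose, and 0 fell with DESeq2 or without any one of WH8, WH9 or WH10. Of 15 tested genes of glycolysis 13 rose and 0 fell, with all 15 above 0 and a median of 0.59, and the largest values were those of *Pgam2* (0.95), *Eno3* (0.91) and *Pgam1* (0.90). The medians of these lists lay close to the 0.61 of the 30 pyruvate and TCA cycle genes, and no difference between the lists was tested.

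**Figure D5:**
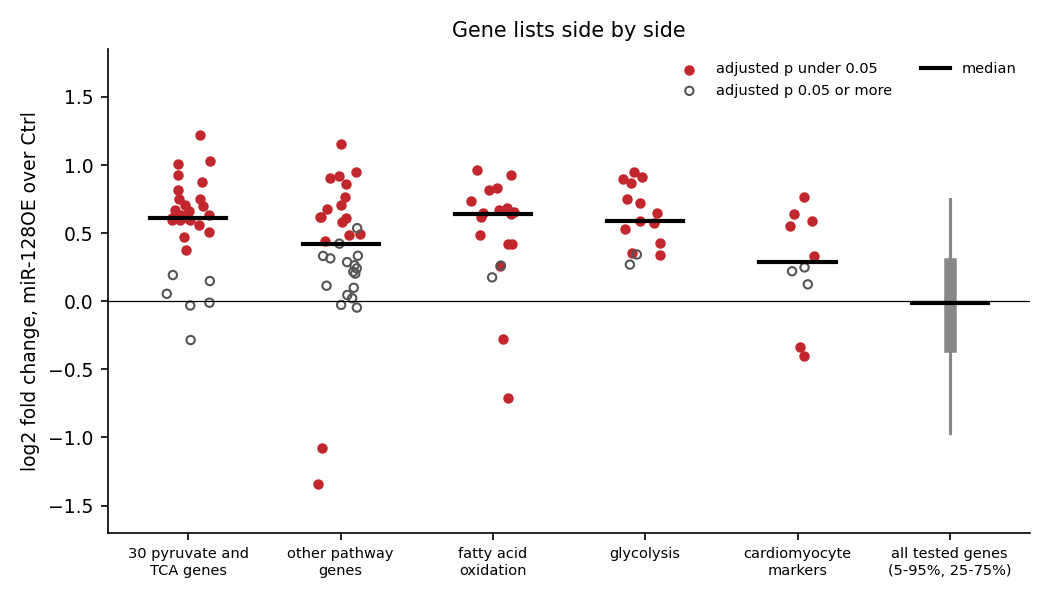
Log2 fold change (*miR-128*OE over Ctrl) of each tested gene in 5 lists, with a line at each list's median, beside the spread of all tested genes (thick bar from the 25th to the 75th percentile, thin line from the 5th to the 95th). Medians are 0.61 for the 30 pyruvate and TCA genes, 0.42 for the other pathway genes, 0.64 for fatty acid oxidation, 0.59 for glycolysis and 0.29 for CM markers.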

How the data were processed

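RNA-seq of P7 hearts was analyzed in 2 Ctrl and 2 *miR-128*OE libraries, grouped by the genotype in the labels. Per the paper's methods, reads of low quality were discarded and TopHat2 placed the others on mm10. The authors then deposited raw counts of reads per known gene, under Entrez identifiers. Gene models, strand and the rule for multi-mapping reads were not given in the sources used here. Symbols were matched for 24374 of 24454 genes.

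Counts passing filterByExpr were scaled by TMM and tested by quasi-likelihood in edgeR 4.0.16 (R 4.3.3), and p-values were adjusted by Benjamini-Hochberg over 14266 genes. Standard errors were obtained as log2 fold change over root F. The biological coefficient of variation was 8.78%. RPKM used the union of exons in GENCODE M21, which gave a length to 21327 genes. Sequences were read from GRCm38 and RefSeq. The tests were checked on simulated counts. Replicates differed by more than sampling noise, with chi-square per degree of freedom of 9.91 in Ctrl and 4.82 in *miR-128*OE. Totals from 8096870 to 14359838 counts set the precision, 3 counts were taken as the detection floor, and floors cover counting error only.

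The members and lists were chosen with earlier results of these data known. Every member is named, with values per library for members that rose by at least 0.5 on the log2 scale, that fell or that did not pass, and for pairs of isozymes. Of other lists the 3 largest changes in each direction and the genes of shared steps are named. Some genes of these lists are not reported here. Alternatives were other size factors, filters, DESeq2 1.42.0, the likelihood ratio and exact tests, a fold change threshold, autosomal genes alone and each library left out. Python 3.11.15 was used for summaries.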

Additional observations from a re-analysis of the deposited data

How the results depend on the processing

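The number of pyruvate and TCA cycle genes that rose was 24 under each alternative except 20 without *miR-128*OE replicate 1 (WH9), 23 without replicate 2 (WH10), 20 with a fold change of at least 1.5 as well, and 21 with scaling by CM markers, which was added after the data were seen. The cause of these differences was not tested. The number that fell was 1 (*Pdp1*) with total counts, with CM scaling and without Ctrl replicate 1 (range 0 to 1 over left-out libraries). Their median log2 fold change was 0.51 with total counts, 0.34 with CM scaling and 0.56 to 0.71 with a library left out. These scalings moved the median of all genes to −0.11 and −0.29, and the 30 genes stood 0.62 and 0.63 above it, against 0.63 in the reported fit. A change of scaling shifts all genes by about the same amount. The distance between the medians was therefore nearly fixed beforehand and is no check of the result. Of 33 other pathway genes, 11 to 18 rose with a library left out. Fatty acid oxidation genes that rose ranged from 9 to 17 and those that fell from 0 to 2, with 0 that fell in DESeq2. Over all genes 897 rose and 667 fell without WH9, 1265 and 1020 without WH10, 1711 and 1403 in DESeq2, 935 and 1187 with the fold threshold, 1611 and 2948 with total counts and 787 and 4851 with CM scaling, against 2347 and 2143.

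Signs turned in genes that had not passed. With a library left out, *Me2* ranged from −0.082 to 0.038, *Pcx* from −0.20 to 0.17 and *Pdp2* from −0.46 to 0.48. *Pcx* was at 0.000322 with no filter, and *Pdp2* at −0.047 with total counts and −0.22 with CM scaling, which also gave −0.12 for *Glud1*, −0.083 for *Idh1*, −0.057 for *Aco1* and −0.066 for *Slc25a12*. Differences in log2 ratio ranged from −0.13 to 0.011 for *Suclg2* to *Sucla2* and from −0.19 to 0.78 for *Pdp2* to *Pdp1*. The log2 ratio of *Mdh2* to *Mdh1* in Ctrl was 0.02 with longest transcripts, so the order of their levels depends on the length used. No paired analysis was possible because the labels carry no replicate numbers, and those used here follow accession order and only name libraries. Depth limits *Pdp2*, with at most 44 counts.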
